A study of Mus musculus with 24 samples.

Results

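The 9 genes Siglech, Bst2, Pacsin1, Lag3, Cox6a2, Cd8a, Cd68, Ccr2 and Runx2, which mark or serve in plasmacytoid dendritic cells (pDCs), were followed through RNA-seq of mouse B cells that lacked the transcription factors PU.1 (encoded by Spi1), SpiB (encoded by Spib) or both. They were taken by gene symbol from the count tables, where all 9 of the 9 were found among 27179 genes. The genes were chosen by their naive levels, which were known to be higher without SpiB, so the naive values are given below as a description, with no test, and tests are kept for the cultured cells. B cells from lymph nodes of C57BL/6 mice aged 6 to 20 weeks were sorted as CD3- B220+ CD138- for sequencing. They were naive or cultured for 48 h, with CD40 ligand and interleukin-4 (CD40L+IL-4) or with lipopolysaccharide and interleukin-4 (LPS+IL-4). For culture, the study's methods describe B cells purified beforehand by negative selection. That step is not stated for the naive sequenced cells, so stage and purification cannot be told apart. Each of the 3 stages held 4 genotypes with 2 libraries each, 24 libraries in 12 groups.

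The control carried the Cre transgene alone (Cd23T/+). PU.1 cKO cells were Spi1fl/fl Cd23T/+, so that Spi1 was deleted in B cells from the transitional stage on, when the Cd23 regulatory sequences drive Cre. SpiB KO mice were Spi1fl/fl Cd23+/+ Spib-/-, with loxP sites but no Cre, and lacked SpiB in every cell of the body from the germ line on. PU.1 SpiB DKO mice, the double knockout, were Spi1fl/fl Cd23T/+ Spib-/-. The study's text describes partial retention of Spi1 exon 5 in naive PU.1 SpiB DKO cells, so the naive double mutant was not fully deleted. The labels do not say whether the 2 libraries of a group came from separate mice, and p-values here measure only the spread between these libraries.

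pDCs are bone marrow derived cells that sense viral nucleic acids through endosomal Toll-like receptors and release large amounts of type I interferon. They share the surface antigen B220 with B cells, and SpiB itself is made in both cell types. The mouse pDC is usually recognised by Siglec-H and by BST2, the antigen of the antibody PDCA-1, and many of its other surface and signalling proteins are shared with T cells, macrophages or monocytes.

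Naive libraries held 14.2 to 18.2 M counts and LPS+IL-4 libraries 22.8 to 73.7 M. Of the CD40L+IL-4 libraries, 7 held 9.60 to 11.4 M and PU.1 cKO replicate 2 held 61.6 M. Levels are counts-per-million (CPM), scaled by trimmed mean of M-values (TMM) factors within each stage, since the stages were normalized separately. Spib stood at 1413 ± 83.3 CPM in naive control cells (mean ± SD, n = 2), 2049 ± 179 without PU.1, 82.9 ± 3.82 in SpiB KO cells and 99.6 ± 1.09 in the double knockout. In the cultures Spib ranged from 178 to 525 CPM with the gene intact and from 9.05 to 37.0 CPM without it, so every library labelled Spib-/- had less Spib RNA than every other library of its stage. Spi1 stood at 164 ± 13.3, 56.4 ± 4.41, 163 ± 0.217 and 106 ± 5.36 CPM in the same order of naive genotypes. Spi1 counts are summed over all exons and do not measure the loss of exon 5: in LPS+IL-4 Spi1 stood at 61.4 ± 3.55 CPM in the double knockout against 66.4 ± 7.97 in control.

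The 9 genes lie on 6 chromosomes in the RefSeq annotation of GRCm38.p6 (mm10). Siglech (chr7:55768154-55779448) is 11.2 Mb and Cox6a2 (chr7:128205435-128206366) 83.7 Mb from Spib on the same chromosome, and the other 7 are on other chromosomes than Spib. Siglech overlaps Gm39015, Cox6a2 overlaps Itgad, and Runx2 (chr17:44495987-44814797) overlaps Runx2os3 and Supt3. The counting is not stated to use strand, so reads shared with those neighbours cannot be told apart.

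Promoter windows of 300 bases, from 250 before to 50 after the RefSeq start, were on hand for 7 of the 9 genes and not for Lag3 or Cox6a2. Stretches of 100 bases from the windows of the 4 genes with a motif match upstream of the start are shown, since these genes were high together in naive cells without SpiB. They are from RefSeq on GRCm38.p6, 5′ to 3′ on the strand of the gene, with the matches in capitals. In Siglech (chr7:55768084-55768183, plus strand) the capitals are the E-box CACGTG and the reverse complement of the E-box CAGGTG, the kind of sequence bound by the pDC regulator TCF4. In Bst2 (chr8:71537578-71537677, minus strand) they are the E-box CAGGTG and a pair of overlapping matches to GAAANNGAA, a core of interferon response elements. In Cd8a (chr6:71373270-71373369, plus strand) they are 2 reverse complements of GGAANNGAA, the composite of an ETS and an IRF site at which PU.1 or SpiB can bind with IRF4 or IRF8. In Ccr2 (chr9:124102083-124102182, plus strand) they are the reverse complement of GAAANNGAA, and a match to GGAANNGAA lies upstream of the stretch.
Siglech: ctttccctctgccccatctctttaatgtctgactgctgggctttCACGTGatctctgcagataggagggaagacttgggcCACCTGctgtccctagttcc
Bst2: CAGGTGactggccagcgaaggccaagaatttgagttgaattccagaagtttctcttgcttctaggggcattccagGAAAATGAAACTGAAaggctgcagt
Cd8a: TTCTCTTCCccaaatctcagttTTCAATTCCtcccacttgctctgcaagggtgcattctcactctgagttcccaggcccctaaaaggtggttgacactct
Ccr2: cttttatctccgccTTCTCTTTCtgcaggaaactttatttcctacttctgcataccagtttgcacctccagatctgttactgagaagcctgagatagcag

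Both strands were searched. GGAANNGAA was found in 3 of the 7 windows (Cd8a, Cd68 and Ccr2) and in 8.24% of 32851 windows over all genes, GAAANNGAA in 2 (Bst2 and Ccr2) and 8.56%, CACGTG in 1 (Siglech) and 7.15%, and CAGGTG in 2 (Siglech and Bst2) and 20.2%. The ETS site GAGGAAGT, which PU.1 and SpiB share, was found in none of the 7 windows (0) and in 3.20% of all. A match describes letters in the window and not a bound site.

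In naive B cells all 9 genes were higher in each of the 4 libraries without SpiB than in each of the 4 libraries with it. The difference from control in SpiB KO ran from a log2 of 0.76 (Pacsin1) to 4.82 (Cd8a), with a median of 2.33 over the 9 genes (1.92 to 2.89 with 1 library left out), and in PU.1 SpiB DKO from 0.87 to 5.12, with a median of 2.61. All 9 were over 1.5-fold higher in SpiB KO against control, in the double knockout against control and in the double knockout against PU.1 cKO. Of the 12500 genes kept in naive cells, 11% were over 1.5-fold higher in the first of these comparisons, 16.2% in the second and 15% in the third. The count of 9 is what the choice of genes fixed, and nothing is read from it. Fewer cells of a type and less RNA per cell cannot be told apart in these bulk samples, at this stage or any other.

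Among the surface receptors, Siglech encodes a sialic acid binding lectin that restrains interferon release by pDCs. Naive control libraries held 57.2 and 23.9 CPM of Siglech and PU.1 cKO libraries 33.3 and 39.9, whereas SpiB KO libraries held 237 and 199.8 and double knockout libraries 267 and 229. Bst2 encodes tetherin, which holds budding virus particles at the cell surface, and stood at 145 and 113 CPM in control and 139.5 and 121 without PU.1, against 584 and 437 without SpiB and 605 and 554 without both. For both genes the SpiB KO and PU.1 SpiB DKO libraries overlapped each other, and the fold over control in SpiB KO was 5.38 for Siglech and 3.97 for Bst2. The log2 difference of Siglech, 2.43 over all libraries, became 3.18 when control replicate 1 was left out and 1.93 when replicate 2 was.

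Cd8a encodes the alpha chain of the CD8 coreceptor of cytotoxic T cells, which some dendritic cells carry as well. Control libraries held 11.97 and 2.35 CPM of it and PU.1 cKO libraries 5.48 and 6.31, against 231 and 175 with SpiB deleted and 266 and 233 in the double knockout. The fold over control was 28.3 in SpiB KO, and it rests on a control group whose libraries were far apart: leaving out control replicate 1 or 2 moved the log2 difference between 4.08 and 6.42. Lag3 encodes an inhibitory receptor that binds MHC class II and had 26.5 and 13.3 CPM in control and 17.1 and 18.4 in PU.1 cKO, and 107 and 83.98 in SpiB KO and 117 and 112 with both deleted. Ccr2, the chemokine receptor by which monocytes leave the bone marrow, had 22.5 and 9.17 CPM in control and 20.9 and 8.08 without PU.1, against 36.3 and 30.1 without SpiB and 48.3 and 29.4 without both. Ccr2 had the narrowest gap between the libraries with and without SpiB: its highest library with SpiB reached 22.5 CPM and its lowest without SpiB 29.4 CPM, and the log2 difference of SpiB KO from control lay between 0.56 and 1.85 when 1 library was left out.

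Among the genes that act inside the cell, Pacsin1 encodes an adaptor of membrane trafficking that pDCs use in their interferon response. Control libraries held 27.8 and 29.9 CPM and PU.1 cKO libraries 24.1 and 16.04, against 48.2 and 49.5 with SpiB deleted and 47.3 and 57.9 in the double knockout. This was the smallest of the 9 differences, 1.69-fold in SpiB KO, on a control level with the tightest replicates. Cox6a2, the muscle form of a cytochrome c oxidase subunit, had 20.1 and 7.11 CPM in control and 9.04 and 8.84 without PU.1, against 148 and 96.8 without SpiB and 187 and 149.5 without both. Cd68, a lysosomal glycoprotein best known from macrophages, stood at 11.3 and 5.76 CPM in control and 6.24 and 6.57 without PU.1, against 49.1 and 36.8 without SpiB and 55.4 and 52.6 without both. In both genes the PU.1 cKO libraries lay between the control libraries. Runx2, the transcription factor of bone formation that also acts in the exit of pDCs from the marrow, held 16.7 and 8.10 CPM in control and 10.7 and 12.1 without PU.1, against 129 and 92.2 without SpiB and 128 and 129 without both. The folds over control in SpiB KO were 8.98 for Cox6a2, 5.02 for Cd68 and 8.91 for Runx2. Without control replicate 1 the log2 difference went from 3.16 to 4.09 for Cox6a2 and from 3.15 to 3.76 for Runx2, and without control replicate 2 it was 2.60 and 2.72.

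**Figure D1:**
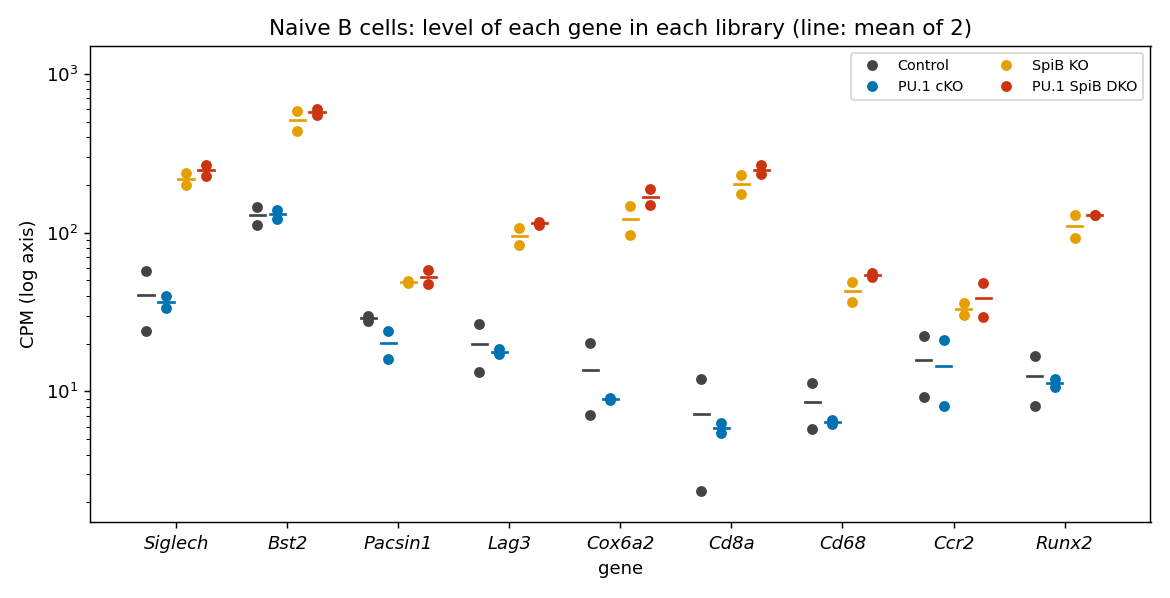
Level of each of the 9 genes in naive B cells, in CPM on a log axis; each point is 1 library, colours are the 4 genotypes and short lines are the means of 2 libraries. For every gene the SpiB KO and PU.1 SpiB DKO points lie above the control and PU.1 cKO points, from a fold of 1.69 for Pacsin1 to 28.3 for Cd8a in SpiB KO against control.

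In naive PU.1 cKO the 9 genes were not above control. The log2 difference of PU.1 cKO from control ran from -0.61 to 0.02 with a median of -0.17, and 0 of the 9 genes were over 1.5-fold higher. For 8 of the 9 the PU.1 cKO and control libraries overlapped, and for Pacsin1 both PU.1 cKO libraries lay below both control libraries. Between the mutants without SpiB, the level in PU.1 SpiB DKO was 1.08 (Pacsin1) to 1.38 (Cox6a2) times that in SpiB KO. For Lag3, Cox6a2, Cd8a and Cd68 the PU.1 SpiB DKO libraries lay above the SpiB KO libraries, and for the other 5 they overlapped. The share of all genes with separated libraries was not counted for either comparison, so nothing is read from the separations.

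Per unit of transcript length, the deposited log2 RPKM (reads per kilobase of exon, scaled for depth) put Bst2 first in every naive genotype. In SpiB KO the mean log2 RPKM was 9.44 for Bst2, 7.62 for Cox6a2, 6.57 for Siglech, 6.07 for Cd8a, 5.69 for Lag3, 5.53 for Cd68, 4.09 for Runx2, 3.65 for Pacsin1 and 3.32 for Ccr2. The SD of 2 libraries was 0.0065 to 0.41 there, and Lag3 and Cd68 were the neighbours that did not differ beyond their spread. In control the order was Bst2 at 7.43, Cox6a2 at 4.36, Siglech at 4.05, Lag3 at 3.37, Cd68 at 3.20, Pacsin1 at 2.88, Ccr2 at 2.16, Cd8a at 1.01 and Runx2 at 0.92, with SDs of 0.0018 to 1.60, and there Bst2 alone stood apart from its neighbour by more than the spread. By means alone, Cd8a ranked below Pacsin1 and Ccr2 in control, where its SD was 1.60, and above both in SpiB KO.

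The 2 naive control libraries were not alike in these genes. Replicate 1 was higher than replicate 2 for 8 of the 9, by a median log2 difference of 1.04, while 47.9% of all genes were higher in replicate 1 and the interquartile range over all genes was 0.51. The ratio of replicate 1 to replicate 2 was 2.40 for Siglech, 2.00 for Lag3, 2.83 for Cox6a2, 5.10 for Cd8a and 2.07 for Runx2. Pacsin1 was the exception at 0.931, and Bst2 was 1.29. In naive SpiB KO 8 of 9 genes were higher in replicate 1 by a median of 0.40, with 50.2% of all genes, and Pacsin1 was again the exception. In naive PU.1 SpiB DKO it was 7 of 9 by a median of 0.13, with 51.2% of all genes, and in naive PU.1 cKO it was 4 of 9 with a median of -0.07, where Ccr2 was highest at 1.36. In control, then, 8 of the genes were high together in 1 library, and Pacsin1 was not.

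**Figure D2:**
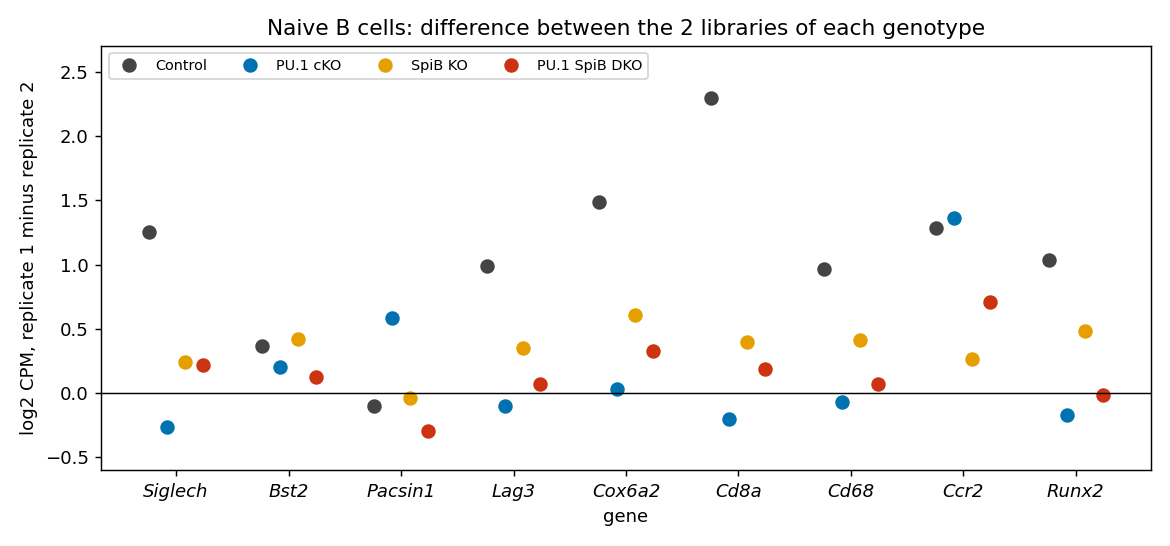
Difference between the 2 libraries of each naive genotype, as log2 CPM of replicate 1 minus replicate 2, for the 9 genes. The control points lie between 0.36 and 2.29 for 8 genes and at -0.10 for Pacsin1, and most points of the other genotypes lie closer to 0.

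Markers of several cell types were read beside the 9 genes. These lists were chosen with earlier results of these data known, so their naive counts are a description and lend the 9 genes no support. Of all genes kept in naive cells, 11% were over 1.5-fold higher in SpiB KO. Of 12 further pDC surface and effector genes, 11 were over 1.5-fold higher in naive SpiB KO (median log2 difference 2.68, against 0.01 over all genes), and the exception, Cd209d, was over 1.5-fold lower. Their levels summed to 261 and 141 CPM in control, to 359 and 349 without PU.1, to 1851 and 1528 without SpiB and to 2405 and 2201 in the double knockout, and none of the 12 was at 0 in all naive libraries. They also separated the control libraries, with a median replicate difference of 1.08 on the log2 scale. Of 12 pDC regulators and sensors that B cells make too, 6 were over 1.5-fold higher in SpiB KO, with a median of 0.61 and a control replicate difference of 0.07.

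For other cell types, 4 of 6 conventional dendritic cell genes, 5 of 7 NK cell genes, 6 of 11 T cell genes and 3 of 6 macrophage and monocyte genes with enough counts were over 1.5-fold higher in naive SpiB KO, as were 0 of 8 B cell genes and 1 of 5 plasma cell genes. The share over all genes was 11%. In naive PU.1 cKO, 0 conventional dendritic cell, 1 NK cell, 2 T cell and 4 macrophage and monocyte genes were over 1.5-fold higher. The macrophage and monocyte median there was 1.04, against 0.80 in SpiB KO, so their rise was not particular to SpiB loss. Summed levels in control and SpiB KO were 56.2 and 26.3 against 123 and 109.8 CPM for conventional dendritic cells, 131 and 59.6 against 211 and 151 for NK cells, 393 and 329.5 against 505 and 465 for T cells and 6.93 and 5.12 against 8.92 and 10.2 for macrophages. The naive T cell genes higher beside Cd8a included Cd8b1 (19.5 and 6.75 CPM in control, 96.9 and 76.1 in SpiB KO) and Cd4 (19.05 and 6.75, 60.9 and 59.9), while Cd3e, a chain of the T cell receptor complex, had 0 to 12 counts in a naive library. Of the macrophage genes, C1qa had 0 to 16 counts in a naive library and Mertk 1 count over all 8. Cd209d, Cd8b1, Cd4, Cd3e, C1qa and Mertk are named after their naive values were seen. Other genes of the T cell and macrophage lists were higher, so nothing is read from the low ones. In naive control the replicate difference had a median of 1.01 for the conventional dendritic cell list, 0.97 for NK cells, 0.65 for macrophages, 0.58 for T cells and -0.03 for B cells. The sort took CD3- B220+ cells, a gate that removes T cells and does not by itself remove pDCs. The part of other cells in the naive levels was not tested.

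After 48 h of culture the order of naive cells was not seen. In either culture there were 0 of the 9 genes for which the 4 libraries without SpiB lay above the 4 with it. The share of all genes that met this rule was not counted, so nothing is read from that count. Genes with few counts can hardly separate in this way. Siglech had 0 and 0 counts in the 2 control libraries with CD40L+IL-4, 1 and 0 without PU.1, 5 and 3 without SpiB and 1 and 0 without both. With LPS+IL-4 it had 1 and 0, 0 and 0, 1 and 0 and 0 and 0 counts. A count of 0 allows up to 3 counts, which is 0.0493 to 0.324 CPM per library with CD40L and 0.0405 to 0.133 CPM with LPS, and only SpiB KO with CD40L+IL-4 passed 3 counts in a library. Siglech there was 0.172% of its naive level, where levels set across stages were scaled separately.

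The other pDC genes Lag3, Cd8a, Cox6a2, Ccr2 and Runx2 were low as well in both cultures and all genotypes. Lag3 ran from 0.0164 to 1.87 CPM with CD40L and from 0.688 to 1.53 CPM with LPS, and in SpiB KO this was 1.16% and 1.10% of the naive level. Cd8a did not pass 1.84 CPM, a value of the control with CD40L+IL-4, and Cox6a2 did not pass 1.19 CPM, Ccr2 0.614 CPM or Runx2 0.971 CPM in any cultured library. Runx2 had 0 to 3 counts in every LPS+IL-4 library. In SpiB KO Cd8a held 0.237% of its naive level with CD40L and 0.0692% with LPS.

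Bst2, Pacsin1 and Cd68 stayed measurable. Bst2 in control fell to 20.5% of its naive level with CD40L+IL-4 and 62.1% with LPS+IL-4, but in SpiB KO to 4.71% and 9.73%. Pacsin1 in control was at 179.6% of its naive level with CD40L+IL-4 and 27.1% with LPS+IL-4. Cd68 in control was at 157% and 31.3%. These shares compare stages normalized apart and carry no test.

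**Figure D3:**
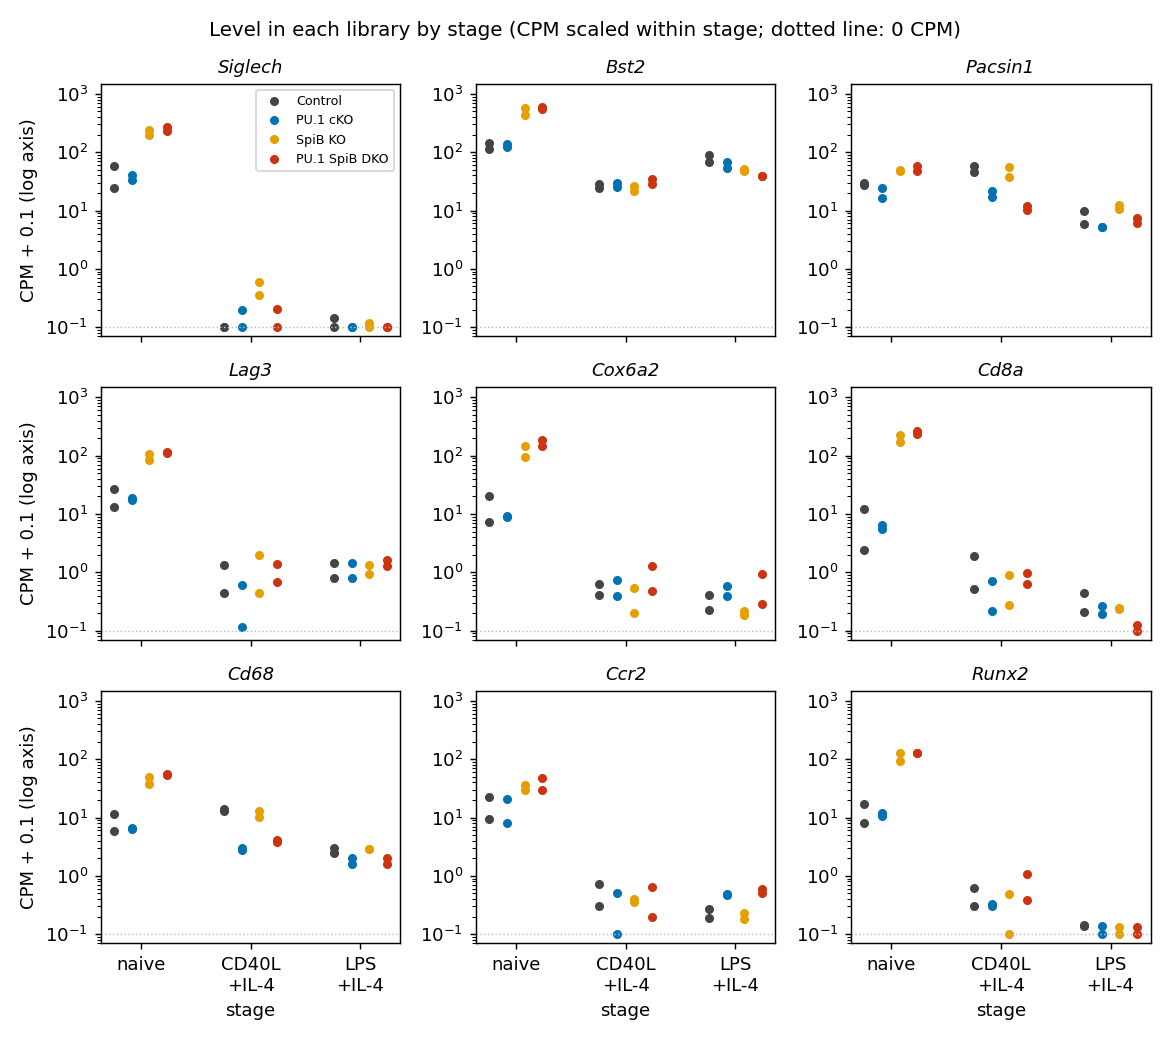
Level of each gene by stage, as CPM + 0.1 on a log axis scaled within stage; each point is 1 library, colours are genotypes and the dotted line is 0 CPM. The naive gap between libraries with and without SpiB is absent in both cultures, where Siglech, Lag3, Cox6a2, Cd8a, Ccr2 and Runx2 lie under 2 CPM and Bst2 and Pacsin1 stay higher. Cd68 stays higher in CD40L+IL-4 and lies between 1.47 and 2.94 CPM in LPS+IL-4.

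Tests in culture used edgeR's quasi-likelihood test with Benjamini-Hochberg adjustment over all genes of the stage, and a gene was called at an adjusted p under 0.15 with a fold over 1.5. All comparisons with control share the same 2 control libraries of their stage. In CD40L+IL-4, 8 of the 9 genes had at least 0.5 CPM in at least 2 libraries and entered the test among 12721 genes, and Siglech did not. That filter can be passed through 1 genotype alone, and the standard errors of Lag3, Cox6a2, Cd8a, Ccr2 and Runx2 were 0.77 to 1.61 on the log2 scale, so that only differences of several fold were detectable.

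With CD40L+IL-4 and SpiB absent, 0 of the 8 tested genes were called, higher or lower, against 0.0786% of all genes called higher and 0.055% called lower. None (0) passed an unadjusted p of 0.05 in edgeR, all 8 adjusted p-values were 1, and DESeq2 and voom called 0 as well. Bst2 had 23.9 and 28.8 CPM in control and 21.5 and 26.6 in SpiB KO, and its log2 fold change was -0.13 ± 0.19 (SE). Pacsin1 held 58.1 and 45.5 CPM in control against 55.2 and 37.9 in SpiB KO (-0.16 ± 0.21), and Cd68 held 12.6 and 14.1 CPM against 12.7 and 10.3 (-0.22 ± 0.23). For all 3 the libraries of these genotypes overlapped. The median over the 8 genes was -0.41. It takes in the low genes Cox6a2, Cd8a, Ccr2 and Runx2 at -1.29 to -0.60, with standard errors of 0.99 to 1.41, and Lag3 at 0.47 ± 1.10. The naive median of 2.33 was over all 9 genes and came from the values that chose them, so no reversal is read from the 2 medians.

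Without PU.1, Pacsin1 and Cd68 fell with CD40L+IL-4. Pacsin1 had 21.4 and 17.2 CPM in PU.1 cKO, below both control libraries, a log2 fold change of -1.44 ± 0.22 (adjusted p = 0.00231, edgeR). Cd68 had 2.71 and 2.88 CPM in PU.1 cKO and changed by -2.25 ± 0.24 (adjusted p = 0.000254, edgeR). Thus 2 of 8 genes were called lower, against 7.21% of all genes called lower, and 0 were called higher. Cd8a, with 6 and 7 counts in PU.1 cKO against 21 and 4 in control, passed an unadjusted p of 0.05 with a log2 fold change of -2.23 but not the adjustment (adjusted p = 0.215, edgeR). Voom, and edgeR with no filter on low counts, called 4 genes lower by adding Cd8a and Lag3, and without PU.1 cKO replicate 1 edgeR called 5, a fit that compares control with the single deep library.

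In the double knockout with CD40L+IL-4 Pacsin1 was lower again, at 11.97 and 10.2 CPM, -2.23 ± 0.23 against control (adjusted p = 0.000157, edgeR). Cd68 in PU.1 SpiB DKO had 3.67 and 4.00 CPM, -1.80 ± 0.25 against control (adjusted p = 0.000907, edgeR). These 2 of 8 genes were called lower, against 9.2% of all genes called lower, and 0 were called higher, against 9.13%. Against PU.1 cKO, Pacsin1 alone was called lower (1 of 8, against 1.83% of all genes), with a log2 fold change of -0.79 ± 0.23 (adjusted p = 0.146, edgeR). That call was at the edge of the threshold: the PU.1 SpiB DKO libraries lay below the PU.1 cKO libraries, but the call was lost whichever of the 4 libraries was left out, with log2 fold changes of -0.96 to -0.65, and it was lost with voom. With no filter on low counts Lag3 was called higher beside it (2.73, adjusted p = 0.0956, edgeR). Bst2 in PU.1 SpiB DKO had 28.4 and 34.9 CPM and was not called.

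In LPS+IL-4, 4 of the 9 genes, Bst2, Pacsin1, Lag3 and Cd68, entered the test among 12445 genes. Bst2 had 68.97 and 90.9 CPM in control and 52.3 and 46.97 in SpiB KO, with no overlap. It fell, with a log2 fold change of -0.69 ± 0.15 (adjusted p = 0.0515, edgeR), the opposite sign of its naive difference of 1.99. So 1 of 4 genes was called lower, against 0.94% of all genes, and 0 higher, against 2.25%. The call rests on few libraries: it was lost without SpiB KO replicate 1 (adjusted p = 0.179, log2 fold change -0.76), SpiB KO replicate 2 (adjusted p = 0.300, -0.61) or control replicate 2 (adjusted p = 0.311, -0.47), each by edgeR, and without control replicate 1, which left a control of 5.83 CPM, Pacsin1 was called higher as well. Pacsin1 went the other way in SpiB KO, at 10.4 and 12.5 CPM against 9.81 and 5.83 in control, without passing the test (0.56 ± 0.23, adjusted p = 0.326, edgeR).

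Bst2 was lowest in PU.1 SpiB DKO with LPS+IL-4, at 38.7 and 38.6 CPM, under every library of the other genotypes. Its log2 fold change was -1.05 ± 0.15 against control (adjusted p = 0.000833, edgeR) and -0.64 ± 0.15 against PU.1 cKO (adjusted p = 0.0190, edgeR). The drop from PU.1 cKO was the 1 of 4 genes called lower in that comparison, against 3.48% of all genes, and it was lost without PU.1 cKO replicate 2, where the log2 fold change was -0.44. Cd68 had 2.94 and 2.41 CPM in control and 1.94 and 1.49 in PU.1 SpiB DKO, a log2 fold change of -0.62 ± 0.26 (adjusted p = 0.0938, edgeR). That makes 2 of 4 called lower against control, against 6.52% of all genes, and 0 higher, against 13.7%. With no filter on low counts edgeR called 4, with Cd8a (-3.66, adjusted p = 0.0728) lower and Ccr2 (1.88, adjusted p = 0.0822) higher as well. The Cd68 call was lost with DESeq2 (adjusted p = 0.169), and in edgeR without control replicate 1 (adjusted p = 0.240) or without PU.1 SpiB DKO replicate 2 (adjusted p = 0.312).

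PU.1 cKO with LPS+IL-4 gave 0 of 4 calls in edgeR, against 3.85% of all genes called lower. An unadjusted p of 0.05 was passed by 3 of the 4, all lower: Bst2 at 52.7 and 67.8 CPM (-0.41 ± 0.15, adjusted p = 0.120), Pacsin1 at 5.14 and 5.05 CPM (-0.59 ± 0.24, adjusted p = 0.163) and Cd68 at 1.93 and 1.47 CPM (-0.62 ± 0.25, adjusted p = 0.166), by edgeR. Bst2 passed the adjusted p but not the fold. The same-numbered LPS+IL-4 libraries deviated together, and when the replicate number entered edgeR as a block, 1 gene was called lower, Cd68 (log2 fold change -0.64, adjusted p = 0.0788). DESeq2 called 1, Pacsin1, and voom 1, Cd68. Lag3 had 0.691 and 1.33 CPM in control, 0.688 and 1.36 without PU.1, 0.852 and 1.24 without SpiB and 1.19 and 1.53 without both, and no comparison called it.

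**Figure D4:**
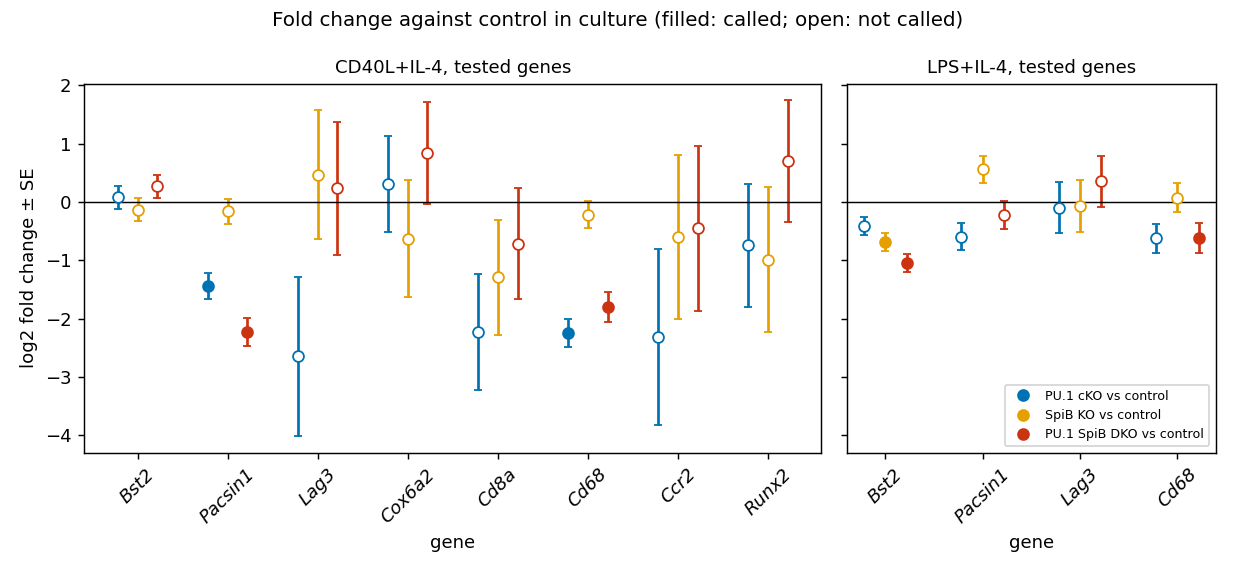
Log2 fold change against control with its standard error (bars) for the genes tested in each culture, edgeR; filled points were called and open points were not. Pacsin1 and Cd68 are filled below 0 for the genotypes without PU.1 in CD40L+IL-4, Bst2 is filled below 0 for SpiB KO and PU.1 SpiB DKO in LPS+IL-4, and no point is filled above 0.

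Whether the effect of genotype differed between the cultures was tested in one model over both. The effect of PU.1 SpiB DKO differed for 3 of the 8 genes (adjusted p under 0.15, edgeR), against 31.6% of all genes. The log2 fold change of Pacsin1 was higher in LPS+IL-4 than in CD40L+IL-4 by 1.98 ± 0.35 (SE, adjusted p = 0.00427). Pacsin1 was called lower with CD40L+IL-4 alone. Cd68 differed in the same direction, by 1.15 ± 0.33 (adjusted p = 0.0311), and Bst2 in the other, by -1.35 ± 0.26 (adjusted p = 0.00602). The effect of SpiB KO differed for 0 of the 8 genes in edgeR, against 0% of all genes, with every adjusted p at 0.9999, and 1 gene, Bst2, passed an unadjusted p of 0.05 (-0.58 ± 0.26). The 2 cultures were deposited in separate count tables, so a difference between the cultures and one between the tables cannot be told apart.

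Of the 12 further pDC surface and effector genes, Klk1, Klra17, Cd300c and Cd209d were at 0 in every cultured library. Of the 5 tested in CD40L+IL-4, 0 were called in SpiB KO (median log2 fold change -0.68). In the double knockout Atp1b1, a sodium pump subunit, was called higher (log2 fold change 5.69) and Upb1, an enzyme of pyrimidine breakdown, lower (-4.69). Of the 4 tested in LPS+IL-4, Atp1b1 was called higher in SpiB KO (0.92), and Atp1b1 (5.13), the homing receptor Ccr9 (2.71) and Ly6c2 (0.98) were called higher in the double knockout. Atp1b1 made up most of the summed list in cultured cells without PU.1. With CD40L+IL-4 the sum was 220.3 and 212 CPM in PU.1 cKO, of which Atp1b1 held 201 and 195, while it was 23.9 and 27.03 CPM in control and 33.2 and 31.4 CPM without SpiB. Of the 12 regulators and sensors shared with B cells, 0 were called in SpiB KO with CD40L+IL-4 and 1, lower, with LPS+IL-4. In the double knockout with CD40L+IL-4 6 of the 12 were called lower, among them Unc93b1, the chaperone of endosomal Toll-like receptors (-1.45), Bcl11a (-1.44) and Tcf4 (-0.70). With LPS+IL-4 3 of the 12 were called higher there, with Irf8 (0.66) and Ly6d (0.83) among them, and 5 lower, with Unc93b1 (-0.85) among them. Of all genes tested with CD40L+IL-4, 0.0786% were called higher and 0.055% lower in SpiB KO, and 9.13% and 9.2% in the double knockout. With LPS+IL-4 the shares were 2.25% and 0.94% in SpiB KO and 13.7% and 6.52% in the double knockout.

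**Figure D5:**
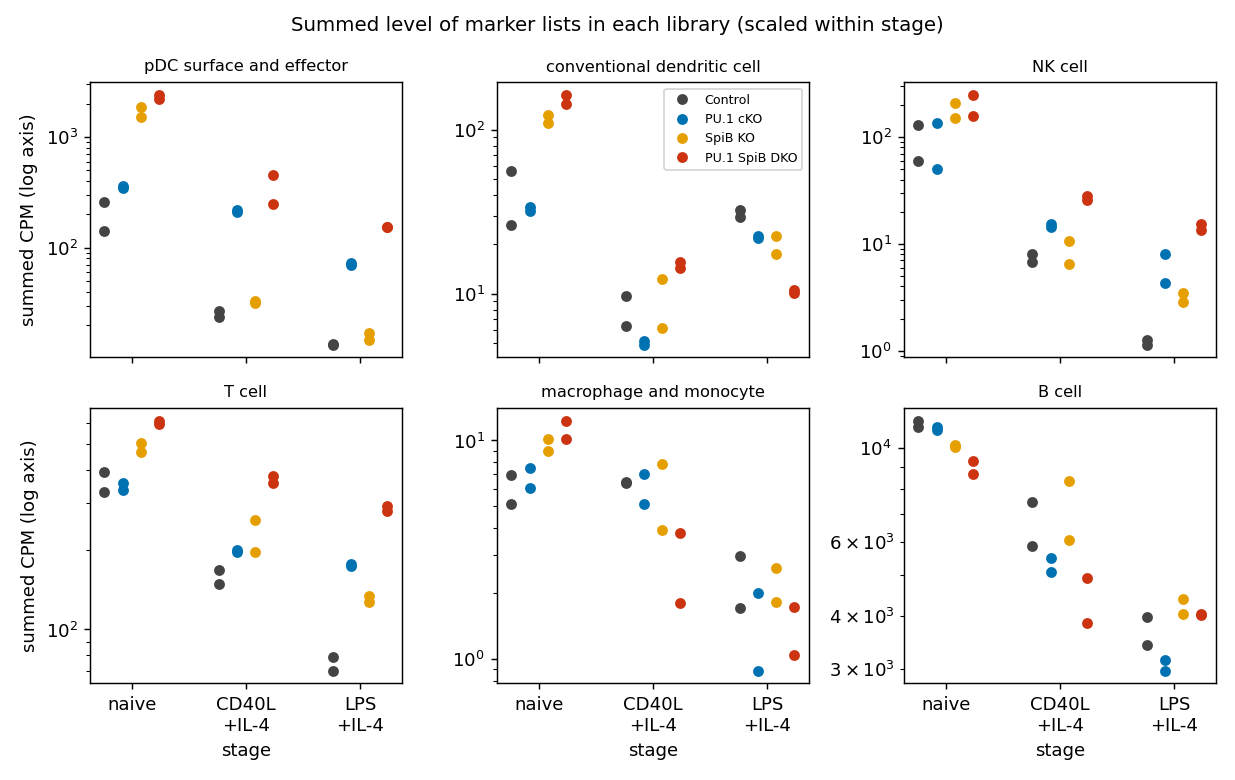
Summed level of 6 marker lists in each library by stage, as CPM on a log axis scaled within stage; points are libraries and colours are genotypes. The pDC surface and effector sum is 1528 to 2405 CPM in the naive libraries without SpiB, and in culture it is highest in the genotypes without PU.1, where Atp1b1 was called higher.

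Of the markers of other cell types, the complement genes C1qa and C1qb were at 0 in every cultured library. Csf1r, Cd14 and C1qc were at 0 in every CD40L+IL-4 library, those of control included. With CD40L+IL-4 the macrophage list summed to 6.49 and 6.39 CPM in control, 7.01 and 5.15 without PU.1 and 3.78 and 1.81 without both, and 1 of 3 tested members, Mrc1, was called lower in the double knockout from a mean of 0.280 CPM over the 8 libraries. Ncr1 of the NK cell list was at 0 in both cultures, Clec10a of the conventional dendritic cell list in both and Clec9a in LPS+IL-4. In SpiB KO with CD40L+IL-4 1 of 7 T cell genes was called higher and 0 of the genes of the macrophage, conventional dendritic cell, NK cell, plasma cell and B cell lists were called. With LPS+IL-4 SpiB KO had 3 of 7 T cell genes higher and 1 lower (Cd8b1, -2.32), 1 of 2 NK cell genes and 1 of 8 B cell genes higher, and 1 of 4 conventional dendritic cell genes lower (Flt3, -0.74). In the double knockout the T cell list had 4 of 7 genes called higher and 0 lower with CD40L+IL-4, and 5 of 7 higher and 1 lower with LPS+IL-4. Thy1 (1.75 in each culture) and Lck (0.74 and 1.77) were among the higher genes, and the lower one was Cd8b1 (-3.90), which encodes the partner chain of Cd8a. The NK cell list had Prf1 (1.87) and Eomes (3.35) higher and Nkg7 (-2.90) lower of 4 genes with CD40L+IL-4, and both tested genes, Prf1 (3.33) and Eomes (7.79), higher with LPS+IL-4. The conventional dendritic cell list had Batf3 (2.30) higher of 4 genes with CD40L+IL-4, and Flt3 (-2.00) and Xcr1 (-1.11) lower of 4 with LPS+IL-4. Several of these folds rest on low levels. Means over the 8 libraries were 0.386 CPM for Nkg7 and 0.672 for Batf3 with CD40L+IL-4, and 0.957 for Eomes and 0.539 for Xcr1 with LPS+IL-4. The whole NK cell list summed to 1.25 and 1.13 CPM in LPS+IL-4 control, and a gene can pass the filter through the groups where it is high. The plasma cell list had 5 of 6 and 4 of 5 genes higher. The B cell list there had 4 of 8 genes lower in CD40L+IL-4 and 3 of 8 higher in LPS+IL-4. Of all genes, the double knockout had 9.13% called higher and 9.2% lower with CD40L+IL-4, and 13.7% and 6.52% with LPS+IL-4. SpiB KO had 0.0786% called higher and 0.055% lower with CD40L+IL-4, and 2.25% and 0.94% with LPS+IL-4. The part of these lists in the results for the 9 genes was not tested.

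Over the 12 pairs of libraries, the replicate difference of Siglech was compared with that of each other gene, 8 comparisons in all. Pearson's r was highest with Lag3 (r = 0.56, permutation p = 0.0585, adjusted p = 0.453) and Cd8a (r = 0.48, permutation p = 0.113, adjusted p = 0.453) and lowest with Bst2 (r = -0.13). Spearman's rho was 0.48 with Lag3 (permutation p = 0.118), 0.43 with Cd8a (permutation p = 0.159) and -0.13 with Bst2 (permutation p = 0.686). After adjustment 0 of the 8 passed, and 0 did before it. Without the 2 pairs farthest from the median of Siglech, control in naive cells and in LPS+IL-4, r was 0.78 with Lag3 and 0.20 with Cd8a. The 8 cultured pairs hold 0 to 5 Siglech counts a library, and the joint movement in naive control rests on 1 pair of libraries.

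The genes whose pattern over all 24 libraries was most like the mean of the 9 standardized genes, by Pearson's r of the deviations from the mean of each stage, were Ctsb (r = 0.95), Hmgn3 (r = 0.94), Sirpa (r = 0.93), Ccnd1 (r = 0.93), Slc27a1 (r = 0.92) and Cpne2 (r = 0.92), of 11577 genes compared. The libraries share stage, genotype and scaling, and the r values are a description. Ctsb, a lysosomal protease, had 289 and 211 CPM in naive control and 883 and 740.0 in SpiB KO. Ccnd1, which encodes cyclin D1, had 22.5 and 7.32 CPM against 123 and 96.7 and, like most of the 9 genes, was higher in control replicate 1. Sirpa, an inhibitory receptor of myeloid and dendritic cells, had 12.8 and 12.01 CPM against 59.9 and 63.3, and its control libraries were alike. With LPS+IL-4 Ctsb stood at 108 and 106 CPM in control against 109 and 124 in SpiB KO, and Sirpa at 6.70 and 3.74 CPM against 5.41 and 3.77.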

How the data were processed

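RNA was sequenced from 24 libraries. The authors aligned reads to GRCm38 (mm10) with Subread, counted RefSeq exons with featureCounts and deposited raw counts per gene and, from limma, quantile normalized log2 RPKM, per the submitters' processing notes and the study's methods. The strand setting and tool versions are not given in the sources used here. Deposited log2 RPKM were used only for levels between genes and as an expression threshold. Naive and LPS+IL-4 libraries share one count table and CD40L+IL-4 libraries have another. Samples were grouped by the genotype and treatment in the labels. The 517 rows without a symbol (0.162% of counts) were left out.

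Counts were analysed in R 4.3.3 with edgeR 4.0.16 (TMM, a filter of 0.5 CPM or more in 2 or more libraries, quasi-likelihood test, the 8 libraries of a stage in one fit); a gene was called at adjusted p under 0.15 and fold over 1.5, the thresholds of the study's methods. Log2 CPM for replicate differences used a prior count of 2, and naive differences were log2 fold changes of the edgeR fit with its default prior count. DESeq2 1.42.0, limma 3.58.1 (voom with quantile normalization), RLE factors, no filter, adjusted p under 0.05, deposited mean log2 RPKM above 0, only the 2 groups compared, the replicate number as a block and leaving out each library were alternatives. An exact permutation test of 2 against 2 libraries cannot go below p = 0.333, so none was used for single genes. Correlations used 100000 permutations, two-sided. Tables and figures were made with Python 3.11.15, numpy 2.4.6, pandas 2.3.3, scipy 1.17.1 and matplotlib 3.10.9. The scripts were tested on simulated data.

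The 9 genes and the marker lists were chosen with earlier results of these data known. Named besides the 9 were Spib, Spi1, up to 3 list genes called in SpiB KO or PU.1 SpiB DKO per list and culture by highest CPM, markers at 0 and the 6 genes most like the 9. Same-numbered libraries of a stage correlated in their deviations from the group means with r of 0.09 to 0.25 in naive cells (5 of 6 pairs over 0.1), -0.07 to 0.27 in CD40L+IL-4 (4 of 6) and 0.39 to 0.51 in LPS+IL-4 (6 of 6), so the numbers were taken to pair libraries in LPS+IL-4. Intervals of depth (a floor of 3 counts) cover counting error only.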

Additional observations from a re-analysis of the deposited data

Results flagged for a closer look

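The effect of PU.1 SpiB DKO against control differed between the cultures by an interaction test for Cd68 (LPS+IL-4 minus CD40L+IL-4, log2 1.151), Pacsin1 (1.976) and Bst2 (-1.350). EdgeR's adjusted p-values stand in the report. Of all genes, 31.6% passed the same test, so the difference is not read as particular to these genes. Differences between a culture and naive cells were not tested, since the naive values chose the genes. For the genes and genotypes given here, both mutant libraries lay on one side of both control libraries in naive cells and on the other side in the culture. For Bst2 the log2 difference of SpiB KO from control in LPS+IL-4 minus that in naive cells was -2.676, and for PU.1 SpiB DKO it was -3.221. For PU.1 SpiB DKO the shift from naive was -3.094 for Pacsin1 in CD40L+IL-4, -4.456 for Cd68 in CD40L+IL-4 and -3.273 for Cd68 in LPS+IL-4. No group had the 4 libraries that a search for single outlying libraries needs.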

How the results depend on the processing

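The naive differences kept their direction under RLE factors, no filter, a replicate block and each left-out library (median of SpiB KO against control 1.92 to 2.89, of PU.1 SpiB DKO 2.12 to 3.22). In CD40L+IL-4 the genes called in PU.1 cKO against control (2) were 4 with voom, 4 with no filter and 2 to 5 with 1 library left out; the double knockout against PU.1 cKO (1) gave 0 with voom, 2 with no filter (1 higher, 1 lower), 0 at adjusted p under 0.05 and 0 to 0 with 1 library left out. SpiB KO against control (0) and PU.1 SpiB DKO against control (2) did not change in CD40L+IL-4 under any of the alternatives run. In LPS+IL-4, PU.1 cKO against control (0) gave 1 with DESeq2, voom, no filter or the replicate block and 0 to 1 with 1 library left out; SpiB KO (1) gave 0 at adjusted p under 0.05 and 0 to 2 with 1 left out; PU.1 SpiB DKO (2) gave 1 with DESeq2, 4 with no filter (1 higher, 3 lower), 1 at adjusted p under 0.05, 1 with only the 2 groups and 1 to 2 with 1 left out; the double knockout against PU.1 cKO (1) gave 0 to 1 with 1 left out. With no filter, the genes added in PU.1 SpiB DKO against control in LPS+IL-4 (Cd8a and Ccr2) were ones that the filter had left out. Those added in CD40L+IL-4 (Cd8a and Lag3), and Pacsin1 in PU.1 cKO with LPS+IL-4, had been tested with the filter as well. The cause of the changed counts was not tested. The main fit left out the pairing seen in LPS+IL-4. The replicate block changed no other call of the 9 genes, and over all genes moved SpiB KO calls in LPS+IL-4 from 397 to 627. With the block in LPS+IL-4, edgeR's adjusted p against control was 0.00765 for Bst2 in SpiB KO and 0.0494 for Cd68 in PU.1 SpiB DKO. The correlation of Siglech and Cd68 replicate differences went from 0.34 to -0.064 with a prior count of 0.5. Depth limits the low genes: a library count of 0 allows up to 0.324 CPM.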
